A study of Mus musculus with 54 samples.

Results

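The genes described are the cytochrome P450 genes of families 1 to 3, which encode most of the liver's drug and toxin metabolising enzymes. Rows of the expression table were taken where the symbol begins with Cyp, a family number from 1 to 3, a subfamily letter and a gene number. Of 24346 rows in all, 62 matched, 2 of which are marked as pseudogenes and 6 of which are listed at 0 in every library (Cyp2b19, Cyp2b23, Cyp2j11, Cyp2j12, Cyp2j13 and Cyp2w1). The remaining 54 genes are the members. The table holds RNA sequencing values of whole mouse liver in FPKM, that is, read fragments relative to transcript length and to the mapped fragments of the library. The mice were WT, with Bmal1 in all tissues, KO, whose Bmal1 gene is silenced by a floxed STOP codon, and RE, which carry the same floxed STOP allele together with Syt10-Cre, which restores Bmal1 in the central clock of the brain, the suprachiasmatic nucleus. Livers were taken at ZT0, ZT4, ZT8, ZT12, ZT16 and ZT20, with 3 livers in each of the 18 groups and 18 per genotype. Zeitgeber time (ZT) counts hours after lights on.

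Cytochrome P450 enzymes are haem proteins of the endoplasmic reticulum that insert an oxygen atom into drugs, toxins, steroids and fatty acids. They take electrons from P450 reductase, encoded by Por, and their haem is made in a pathway whose first enzyme is Alas1. Many are induced when a foreign compound activates a receptor: AhR for family 1, CAR (Nr1i3) for subfamily 2b, and PXR (Nr1i2) for subfamily 3a. Clock-driven transcription factors of the PAR bZIP group, Dbp, Tef and Hlf, are known activators of such genes in liver.

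All 54 members were placed on the mouse genome (RefSeq, GRCm38), 53 by their own symbol and Cyp2c44 by a synonym. Most of them sit in a few gene clusters. Others lie apart, such as Cyp1b1 on chromosome 17, Cyp2u1 on chromosome 3, and Cyp2r1 and Cyp2e1 on chromosome 7. The 15 members of subfamily 2c lie on chromosome 19 between 39006940 and 44029256, and the 9 of subfamily 2d lie on chromosome 15 between 82370527 and 82794452. The 9 of subfamily 3a are on chromosome 5, and chromosome 7 holds 13 members, among them all of subfamilies 2a and 2b. Neighbours in these clusters often share sequence. Of 53 members with annotated transcripts, 25 shared more than 10% of their 50-base stretches with another member, and 17 of these 25 were tested. The share was 60.3% for Cyp2c40, 54.3% for Cyp2c69, 52.8% for Cyp2c67, 43.3% for Cyp2c68 and 36.1% for Cyp2a4, so the division of reads among these genes is uncertain. It was 0.3% for Cyp2c29 and 6.9% for Cyp2b10, and Cyp2c55, Cyp2c70, Cyp2e1 and Cyp2g1 shared none.

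The sequences just upstream of Cyp2a5 and Cyp2a4 are printed because Cyp2a5 had the smallest p-value for a daily rhythm in WT and Cyp2a4 is its closest relative. Cyp2a4 was also called as rhythmic in WT, at a far lower level. It was tested only through WT ZT12, near its peak, so the filter favoured that call. It shares 36.1% of its 50-base stretches with Cyp2a5, so the division of reads between them is uncertain. Each is the 250 bases before the gene's start (RefSeq, GRCm38.p6, plus strand, 5′ to 3′), Cyp2a5 at chr7:26835089-26835338 and Cyp2a4 at chr7:26306942-26307191. Capitals mark bases that were not matched when the pair was aligned.
Cyp2a5: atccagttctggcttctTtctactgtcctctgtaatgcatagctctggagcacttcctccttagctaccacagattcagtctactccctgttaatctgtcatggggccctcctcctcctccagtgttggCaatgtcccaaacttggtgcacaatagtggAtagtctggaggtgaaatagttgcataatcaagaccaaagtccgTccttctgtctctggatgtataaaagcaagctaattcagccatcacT
Cyp2a4: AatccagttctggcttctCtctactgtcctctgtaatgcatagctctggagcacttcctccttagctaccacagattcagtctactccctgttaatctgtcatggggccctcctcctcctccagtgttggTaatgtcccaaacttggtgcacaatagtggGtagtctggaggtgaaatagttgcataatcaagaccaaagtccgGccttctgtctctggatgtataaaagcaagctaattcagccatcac
Over 249 aligned bases, 245 were identical (98.4%) and 4 were mismatched. Clock and receptor motifs were searched in these windows of 250 bases, on both strands, in 48 promoters of 46 members. The D-box spellings TTATGTAA and TTACGTAA were in 0 of 48, against 0.819% and 0.113% of 32851 promoters in all. The E-box CACGTG was found upstream of Cyp2j6, the dioxin response core TNGCGTG upstream of Cyp2c68, and the RORE TAGGTCA upstream of Cyp3a11. Each is 1 of 48 (2.08%), against 6.02%, 4.1% and 2.23% of all promoters in that order. Such small counts do not show that a motif is rarer or more common in the members. The motifs do not overlap in spelling, and a match is only a match of letters. Only these spellings within 250 bases were searched and other forms of a site were not counted. A count of 0 therefore does not show that a promoter lacks such a site.

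The targeted gene was read first. Bmal1, listed as Arntl, ranged from 0.202 to 10.3 FPKM in WT, from 9.76 to 14.2 in KO and from 7.60 to 15.5 in RE, and these whole-gene values check nothing of the STOP allele. Of 6 hepatocyte markers, 2 were higher and 3 lower in KO, and 2 higher and 2 lower in RE, their sum running from 23974 to 39388 FPKM in WT, 20130 to 42896 in KO and 23330 to 48493 in RE. Apoa1 read at least 8840 FPKM in each liver, while Serpina1e had medians of 5916 (WT), 644 (KO) and 1664 (RE) FPKM. Alb is listed at 0 in all 18 WT libraries, in 1 KO library and in 2 RE libraries. This is a sign that some values listed at 0 are failed estimates. The hepatocyte marker counts and sums include Alb, with medians of 13663 FPKM in KO and 13562 in RE. Their sums in WT and in the mutants are thus not comparable. WT libraries therefore differ from the others in at least 1 estimate, and the part of this in the level differences was not tested. Total FPKM per library ran from 572995 to 751399. Kupffer cell markers moved with genotype (3 of 5 lower in KO and 5 of 5 lower in RE), their sum running from 56.0 to 128 FPKM in WT, 35.4 to 129 in KO and 26.3 to 115 in RE. Pericentral hepatocyte markers, from the zone of the lobule where many P450 enzymes sit, were higher in 3 of 7 and lower in 2 of 7 in each mutant, with sums of 800 to 1645 FPKM (WT), 940 to 1990 (KO) and 1217 to 2417 (RE). Periportal markers were higher in 3 of 7 in KO and 1 of 7 in RE (sums 2274 to 4567, 2580 to 5010 and 2285 to 5826 FPKM). Of 4 tested intestine markers 3 were lower in KO and 1 in RE, with Fabp2 making up most of the sum (81.2 to 200, 41.4 to 117 and 20.5 to 154 FPKM). Bile duct markers were higher in 1 of 4 in each mutant (Sox9), fat markers lower in 1 of 2 (Cfd), and endothelial markers higher in 1 of 4 and lower in 1 of 4. A single stellate cell marker of 5 was higher in KO. Of all genes tested, 22.1% were higher and 20.2% lower in KO, and 24.2% and 21.7% in RE. The part of these marker differences in the results was not tested. Livers stood apart in RE at ZT16 (liver 2, median correlation with its genotype 0.952), in WT at ZT0 (liver 0, 0.970) and in RE at ZT0 (liver 2, 0.972). These are the 3 lowest correlations, and no gap sets off the third, as RE ZT20 liver 0 followed at 0.973. The WT ZT0 liver held the WT maxima of Lgals4 (28.6 FPKM), Krt19 (16.1), Muc13 (9.16), Epcam (8.72), Vil1 (3.43) and Cdx1 (1.47), markers of intestine and bile duct. The RE ZT16 liver held 22.4 FPKM of the pancreas marker Cela2a, with Cpa1, Pnlip and Prss2 at or under 0.0699 FPKM in every RE liver. Calls that ended or arose without these 3 livers are given beside the results. In whole liver, fewer cells of a type and less RNA per cell cannot be told apart. The labels do not say that livers are separate animals, so p-values measure the spread between these livers.

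A handful of enzymes made up most of the P450 transcripts. Over all 54 libraries, Cyp2e1, which oxidises ethanol and paracetamol, averaged 4019 FPKM and gave 27.6% of the summed FPKM of the members. Cyp2c29, an arachidonic acid epoxygenase, averaged 2096 FPKM and Cyp2d9, a testosterone hydroxylase enriched in male liver, 1228 FPKM. The top 5, with Cyp2f2 (769 FPKM) and Cyp2c70 (738 FPKM), gave 60.9% of the sum and the top 10 gave 80.8%. By mean FPKM, 20 members lay at 100 or more, 14 from 1 to under 100, and 20 under 1. The low end holds Cyp1a1 and Cyp1b1, the AhR-responsive genes, at 0.344 and 0.0935 FPKM, and the female-enriched Cyp3a41b at 0.000648 FPKM, the member nearest to 0.

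The summed FPKM of the members had higher medians in the mutants. It ran from 10736 to 15620 in WT livers with a median of 12867, from 7813 to 19234 in KO with a median of 15471, and from 11535 to 19774 in RE with a median of 16382. The ranges overlapped. Medians of the subfamily 2c sum were 2900 (WT), 5838 (KO) and 5327 (RE) FPKM. Those of subfamily 2a were 842, 548 and 542 FPKM, and those of subfamily 2d were 2571, 2471 and 2662 FPKM. These sums are descriptions without a test.

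**Figure D1:**
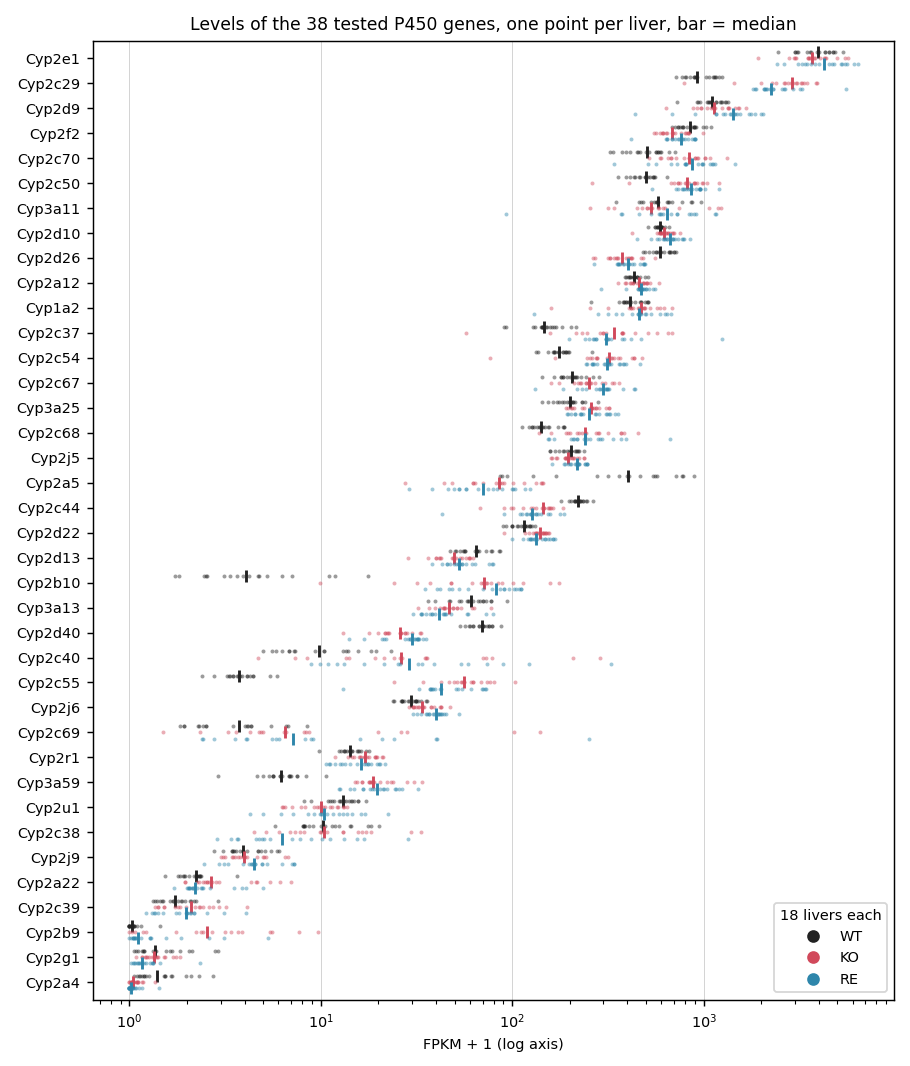
Levels of the 38 tested members, 1 point per liver (18 livers per genotype), on a log axis of FPKM + 1, with the median of each genotype as a bar. Cyp2c55 and Cyp3a59 show KO and RE livers wholly to the right of WT, and Cyp2d40 shows them wholly to the left.

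A gene was tested when its mean reached 1 FPKM in any of the 18 groups. Of the 54 members 38 passed and 16 did not. Of the 38, 33 were at or above 1 FPKM in all 18 groups, and 5 passed through some groups only (Cyp2a22, Cyp2c39, Cyp2b9, Cyp2g1 and Cyp2a4). The nearest to the limit were Cyp2a4, with a highest group mean of 1.12 FPKM, inside it, and Cyp2d12, with 0.986 FPKM, outside it. Values were compared as log2(FPKM + 1), a scale that understates changes of low genes. Every adjusted p comes from limma with the Benjamini-Hochberg method applied to all 10932 tested genes, and genes with a value under 0.05 are called. A level difference is the difference between the means over the 6 times.

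The first comparison asks which P450 levels differ when Bmal1 is silenced in the body. In KO livers the CAR and PXR targets Cyp2c55, Cyp2b10 and Cyp2c29 rose, with 10 of 13 tested members of subfamily 2c higher, and Cyp2a5, Cyp2d40, Cyp2d26 and Cyp2c44 fell. Of the 38 tested members 18 were higher in KO (22.1% of all genes tested were) and 9 were lower (20.2% of all genes). All called genes together were 42.3% of those tested. The median difference was 0.16 (log2) over the tested members and 0.00 over all genes.

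Cyp2c55, which hydroxylates arachidonic acid, was the most strongly raised member. It read 1.39, 2.73 and 4.88 FPKM (lowest, median, highest of 18) in WT and 23.1, 55.1 and 102 in KO. Every KO liver was above every WT liver, and the KO mean was 20.1 times the WT mean (difference 3.89, log2, SE 0.15, adjusted p 1.51e-23 by limma). Cyp2b10, the standard reporter of CAR activity in mouse liver, read 0.735, 3.08 and 16.7 FPKM in WT and 8.87, 70.7 and 174 in KO. A single KO liver, at ZT16, lay below the highest WT livers, which were from ZT16 and ZT20. The KO mean was 16.6 times the WT mean (difference 3.82, SE 0.21, adjusted p 3.01e-18). Cyp3a59, of the cluster on chromosome 5, read 1.91, 5.20 and 9.65 FPKM in WT and 14.1, 17.7 and 33.0 in KO, with no overlap (difference 1.71, SE 0.11, adjusted p 3.46e-16). It shares 26.8% of its 50-base stretches with Cyp3a25. Members that lay higher in every KO than in every WT liver were these 2, Cyp2c55 and Cyp3a59, against 0.878% of all genes tested.

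Subfamily 2c is known for drug hydroxylation and for turning arachidonic acid into epoxides. In it, 10 of 13 tested members were higher in KO and 1 was lower, with a median difference of 0.74 (log2). Of all genes tested, 22.1% were higher and 20.2% lower. Many raised members share 50-base stretches with others: Cyp2c37 30.1%, Cyp2c54 25.7% and Cyp2c50 18.3%. The shares were larger for Cyp2c40, Cyp2c67, Cyp2c68 and Cyp2c69, so these members may not be independent of each other. Cyp2c29 read 717, 920 and 1246 FPKM in WT and 786, 2908 and 3893 in KO. A single KO liver, ZT16 liver 2, lay in the WT range, and the KO mean was 2.84 times the WT mean (difference 1.44, SE 0.13, adjusted p 5.29e-12). Cyp2c70 makes muricholic acids, a group of bile acids. It read 323, 507 and 706 FPKM in WT and 517, 838 and 1326 in KO (difference 0.72, SE 0.10, adjusted p 2.79e-07 by limma). The ranges overlapped although the means differed 1.66-fold. The differences of the other raised members were 1.10 for Cyp2c37, 0.80 for Cyp2c68, 0.74 for Cyp2c54, 0.67 for Cyp2c50 and 0.30 for Cyp2c67, with adjusted p from limma between 2.97e-06 and 0.00518. Cyp2c44, an epoxygenase that lies apart from the rest of the cluster, went the other way. It read 180, 220 and 265 FPKM in WT and 66.7, 144 and 184 in KO (difference -0.76, SE 0.11, adjusted p 6.72e-07), so the ranges touched at their ends. Cyp2c38 (difference 0.04, SE 0.24) and Cyp2c39 (0.24, SE 0.12) were not called.

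Cyp2c40 and Cyp2c69, neighbours enriched in female liver, rose with a wide spread between livers. Cyp2c40 read 3.98, 8.81 and 22.3 FPKM in WT and 3.68, 25.3 and 286 in KO (difference 1.61, SE 0.42, adjusted p 0.00172). Its KO median lay above the highest WT liver, and the call held without each liver in turn (adjusted p up to 0.00417). Cyp2c69 read 0.844, 2.75 and 7.45 FPKM in WT and 0.498, 5.49 and 138 in KO (difference 1.35, SE 0.49, adjusted p 0.0241). The same livers were high for both: KO ZT12 liver 0 read 286 FPKM of Cyp2c40 and 138 of Cyp2c69, KO ZT8 liver 2 read 207 and 101, and RE ZT0 liver 2 read 327 and 250. Without KO ZT8 liver 2, or without KO ZT12 liver 0, the call of Cyp2c69 in KO ended (adjusted p up to 0.0542). Of the 9 members listed as enriched in female liver, 4 were tested. Of these 4, 3 were higher and 1 lower in KO (22.1% and 20.2% of all genes tested were). Beside Cyp2c40 and Cyp2c69, Cyp2b9 was higher (WT 0, 0.0275 and 0.444 FPKM, KO 0, 1.56 and 8.64, with 6 WT livers and 1 KO liver listed at 0, difference 1.31, SE 0.19, adjusted p 5.01e-07). Cyp2b9 passed the filter through 4 KO groups and 1 RE group and no WT group, so the filter favoured a difference from WT. It was also highest in KO ZT12 liver 0. Cyp2d9, the male-enriched member, was not called (difference 0.08, SE 0.12). It read 964 FPKM in KO ZT12 liver 0 and 437 in RE ZT0 liver 2, the lowest of the RE livers.

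Among the members that fell in KO, Cyp2a5, which hydroxylates coumarin and nicotine, showed the largest change. It read 85.3, 401 and 888 FPKM in WT and 26.5, 84.7 and 144 in KO, the WT mean being 4.83 times the KO mean (difference -2.04, SE 0.18, adjusted p 1.18e-12). The overlap came from WT livers at ZT0 and ZT4. Its relative Cyp2a4, a testosterone hydroxylase, read 0.0557, 0.392 and 1.74 FPKM in WT and 0, 0.0508 and 0.359 in KO, where 2 livers are listed at 0 (difference -0.44, SE 0.07, adjusted p 1.19e-06). Cyp2a22, further along the same cluster, was higher (difference 0.55, SE 0.12, adjusted p 0.000229), and Cyp2a12 was not called (0.07, SE 0.05). Cyp2g1 was not called either (-0.15, SE 0.07), but without the 3 livers that stood apart it was (-0.14, adjusted p 0.0471 by limma). Cyp2a4 and Cyp2g1 reached 1 FPKM in the WT ZT12 group alone, so the filter favoured a lower level in KO for both.

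Subfamily 2d had 1 tested member of 6 higher and 3 lower in KO (22.1% and 20.2% of all genes tested were). Cyp2d40 read 52.1, 69.0 and 86.6 FPKM in WT and from 12.1 to 32.3 in KO, and it was the only member lower in every KO than in every WT liver (0.732% of all genes tested were; difference -1.50, SE 0.10, adjusted p 3.75e-16). Cyp2d26 read 484, 593 and 720 FPKM in WT and 263, 374 and 554 in KO (difference -0.68, SE 0.07, adjusted p 1.70e-10). Cyp2d13, which RefSeq classes as a transcribed pseudogene, fell by 0.40 (SE 0.09, adjusted p 0.000227). Cyp2d22, the mouse gene closest to the human drug enzyme of subfamily 2D, was higher by 0.28 (SE 0.05, adjusted p 3.24e-05), while Cyp2d10 was not called (0.07, SE 0.05).

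The remaining calls in KO were small. Higher were Cyp3a25 (0.34, SE 0.09), Cyp2j6, a fatty acid epoxygenase (0.27, SE 0.06), and Cyp2r1, the vitamin D hydroxylase of the liver (0.26, SE 0.08). Lower were Cyp2u1, a fatty acid hydroxylase (-0.41, SE 0.14), Cyp3a13 (-0.33, SE 0.10) and Cyp2f2, known for activating naphthalene (-0.26, SE 0.08). Adjusted p for these 6 lay between 0.000161 and 0.0173. Several abundant enzymes were not called. Cyp2e1 had medians of 3966 FPKM in WT and 3687 in KO (difference -0.06, SE 0.09, adjusted p 0.636), Cyp1a2, which clears caffeine, 413 and 468 (0.06, SE 0.15, adjusted p 0.770), and Cyp3a11, the main PXR target of mouse liver, 575 and 533 (-0.10, SE 0.18, adjusted p 0.688). Cyp2j5 (0.00, SE 0.04) was not called either. Of the 4 CAR and PXR targets listed, 3 were thus higher (22.1% of all genes tested were) and Cyp3a11 was not called. Of the 3 AhR targets only Cyp1a2 was expressed enough to test.

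RE livers, in mice whose central clock has Bmal1, were then set against the same WT livers. In RE, 17 of 38 members were higher (24.2% of all genes tested) and 9 were lower (21.7%), and all called genes were 45.9% of those tested. Both comparisons share the WT libraries. In each of the 22 members called in both, the direction was the same.

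Cyp2c55 read 12.0, 41.4 and 71.6 FPKM in RE (lowest, median, highest of 18; difference from WT 3.56, SE 0.15, adjusted p 2.56e-22), and its lowest RE liver was ZT16 liver 2. Cyp2b10 read 34.0, 81.3 and 110 FPKM in RE, all above the WT maximum of 16.7 (difference 4.02, SE 0.21, adjusted p 6.26e-19). Cyp2c29 read 1806, 2260 and 5550 FPKM in RE, again above every WT liver (difference 1.34, SE 0.13, adjusted p 4.04e-11), and its highest value belonged to ZT16 liver 2. Together with Cyp3a59 (11.4, 18.7 and 31.1 FPKM in RE, difference 1.65, SE 0.11), these were the 4 members higher in every RE than in every WT liver, against 0.787% of all genes. Cyp2d40 (13.1, 29.0 and 34.3 FPKM in RE, difference -1.33, SE 0.10) was lower in every RE liver, as were 0.558% of all genes. Cyp2a5 read 27.9, 69.4 and 123 FPKM in RE (difference -2.29, SE 0.18, adjusted p 4.10e-14).

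Subfamily 2c had 10 of 13 tested members higher and 2 lower in RE (24.2% and 21.7% of all genes tested were). As in KO, raised members that share sequence may not be independent of each other. The second lower member was Cyp2c38 (difference -0.60, SE 0.24, adjusted p 0.0353 by limma), whose call ended in 15 of the fits that left out a liver. Cyp2c40 read 7.88, 28.0 and 327 FPKM in RE (difference 1.70, SE 0.42, adjusted p 0.000900) and Cyp2c69 read 1.41, 6.17 and 250 (1.46, SE 0.49, adjusted p 0.0135). Both maxima were ZT0 liver 2. Without the 3 livers that stood apart, the difference of Cyp2c69 was 1.00 and not called (adjusted p 0.0619). The other raised 2c members differed by 1.16 (Cyp2c37), 0.83 (Cyp2c54), 0.82 (Cyp2c50), 0.80 (Cyp2c68), 0.77 (Cyp2c70) and 0.47 (Cyp2c67), with adjusted p at or under 3.51e-05. Cyp2c44 fell by 0.83 (SE 0.11).

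Some calls were made in RE against WT and not in KO against WT. Cyp2d10 (0.16, SE 0.05, adjusted p 0.00440) and Cyp2j5 (0.13, SE 0.04, adjusted p 0.0155) were higher, but with quantile normalization they came to 0.03 and 0.05 and were not called. Cyp2g1, an enzyme of the olfactory mucosa, was lower (-0.31, SE 0.07, adjusted p 0.000370 by limma). It read 0.0598, 0.366 and 1.91 FPKM in WT and 0.0201, 0.163 and 1.33 in RE. Cyp2g1 and Cyp2a4 reached 1 FPKM in the WT ZT12 group alone, so the filter favoured a lower level in RE for both. The further calls were Cyp2j6 (0.42), Cyp3a25 (0.39) and Cyp2d22 (0.29) above WT, and Cyp2d26 (-0.58), Cyp2a4 (-0.48), Cyp3a13 (-0.47) and Cyp2d13 (-0.21) below. That of Cyp2d13 (adjusted p 0.0488) ended in 34 of the fits that left out a liver and without the 3 livers that stood apart (-0.14, adjusted p 0.177). Without those 3, Cyp2d9 (0.41, adjusted p 0.000554) and Cyp2a12 (0.16, adjusted p 0.00836) were called as higher in RE, where with them the differences were 0.26 and 0.10. Not called in RE were Cyp2a22, Cyp2b9, Cyp2f2, Cyp2r1 and Cyp2u1, all called in KO.

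**Figure D2:**
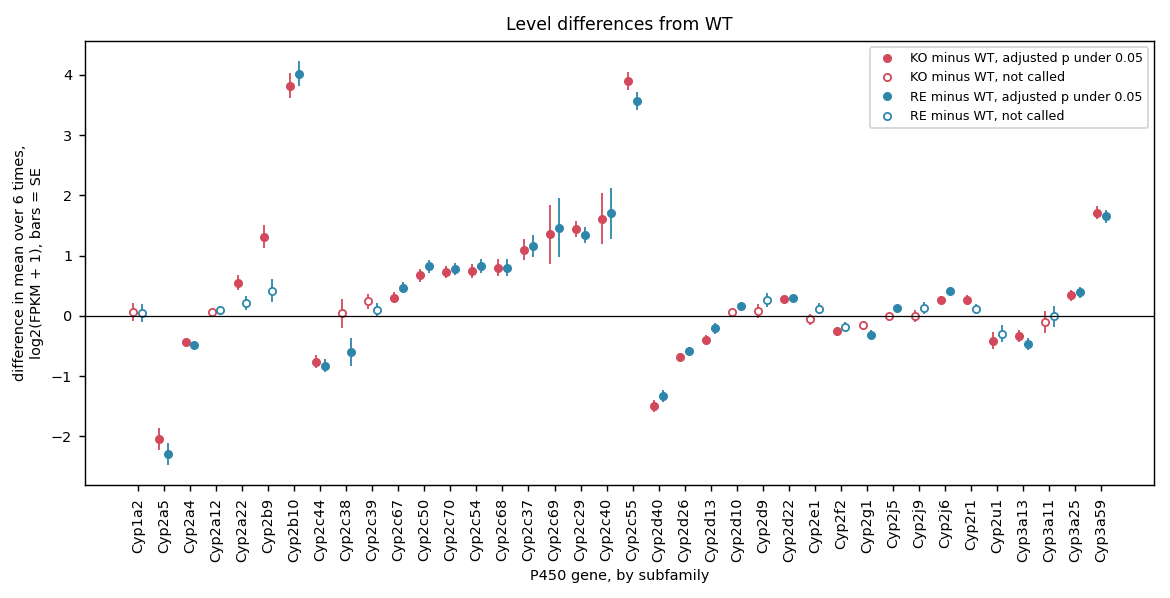
Level difference from WT for each tested member, in log2(FPKM + 1), with bars of 1 SE. KO minus WT is red and RE minus WT is blue, and filled points have an adjusted p under 0.05. Cyp2c55 and Cyp2b10 stand highest in both mutants and Cyp2a5 lowest.

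The direct comparison of RE with KO asks whether the central clock's Bmal1 goes with a different level. Of 38 members 1 was lower in RE and 0 were higher, against 0.119% and 0.0732% of all genes tested, and 9 members had an unadjusted p under 0.05. The call was Cyp2b9, which read 0, 0.115 and 4.27 FPKM in RE against 0, 1.56 and 8.64 in KO (difference -0.89, SE 0.19, adjusted p 0.0264 by limma). High KO livers were spread over ZT4, ZT8, ZT12 and ZT20, while all 3 at ZT16 were at or below 0.218 FPKM. The call ended in 6 of the fits that left out a liver (adjusted p up to 0.0628) and when the genotypes were fitted alone (0.231). Cyp2b9 was tested because of groups in which it is high, mostly KO, and with no filter the call ended (adjusted p 0.0559). Without the 3 livers that stood apart, Cyp2d9 was higher in RE (0.33, adjusted p 0.0478) and Cyp2c38 (-0.89, adjusted p 0.0129) and Cyp2g1 (-0.21, adjusted p 0.0484) were lower. With them those differences were 0.18, -0.64 and -0.16 and not called. For the main induced genes the differences between RE and KO were 0.20 (SE 0.21) for Cyp2b10, -0.32 (SE 0.15) for Cyp2c55 and -0.11 (SE 0.13) for Cyp2c29. For Cyp2a5, which was lower than WT in both mutants, the difference was -0.25 (SE 0.18).

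Daily rhythms were examined next, first in WT. A 24 h rhythm was tested by fitting a cosine and a sine to the 6 group means, and the amplitude runs from the mean to the peak (log2). In WT 9 of 38 members were called, against 34.8% of all genes tested. The median amplitude was 0.19 over the tested members and 0.14 over all genes. In KO, where 0 members were called, these medians were 0.16 and 0.08, so a larger median does not show stronger rhythms. Peaks of called members fell from ZT10.0 to ZT21.7.

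Cyp2a5 had by far the largest amplitude. Its WT livers read 128, 87.5 and 93.0 FPKM at ZT0, then 85.3, 277 and 169 at ZT4, and 546, 362 and 395 at ZT8. They reached 776, 766 and 720 at ZT12, and read 888, 559 and 567 at ZT16 and 464, 406 and 315 at ZT20. No liver at ZT0 overlapped any from ZT8 to ZT20. The amplitude was 1.43 (SE 0.18) with a peak at ZT13.5 (adjusted p 1.88e-07 by limma). On the same chromosome 7 cluster, Cyp2a4 (26307192 to 26315088) and Cyp2g1 (26808927 to 26821197) cycled at low levels, with Cyp2a5 lying at 26835339 to 26843264. Cyp2a4 averaged 0.527 FPKM over WT livers against 422 for Cyp2a5, a comparison per length, and its fit peaked at ZT14.3 (amplitude 0.37, SE 0.07, adjusted p 0.000268). Cyp2g1 read 1.80, 1.91 and 1.13 FPKM at ZT12 and 0.168, 0.0598 and 0.181 at ZT0, with a peak at ZT10.0 (amplitude 0.55, SE 0.07, adjusted p 4.01e-07). Cyp2a12 and Cyp2a22, in the same cluster, were not called (amplitudes 0.07 and 0.21). Cyp2a4 and Cyp2g1 reached 1 FPKM in the WT ZT12 group alone, near their peaks, so the filter itself favoured a rhythm in WT and a difference from the mutants for both. Their WT calls held with no filter. Cyp2a4 and Cyp2a5 share transcript sequence, and Cyp2g1 shares none with any member.

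Cyp2b10 cycled later. It read 1.46, 0.735 and 1.51 FPKM at ZT8 and 16.7, 3.74 and 10.9 at ZT16, with no overlap, and the fit gave an amplitude of 0.98 (SE 0.21) and a peak at ZT18.4 (adjusted p 0.00167). Cyp2e1 rose from 2433, 2999 and 3480 FPKM at ZT0 to 4720, 4539 and 4719 at ZT12, a gentler curve of amplitude 0.36 (SE 0.09) that peaked at ZT11.7 (adjusted p 0.00366). Cyp3a13 ran from 46.3, 35.4 and 51.6 FPKM at ZT4 to 92.7, 76.8 and 69.0 at ZT16, with a peak at ZT17.3 (amplitude 0.42, SE 0.10, adjusted p 0.00617). Cyp2j5, an epoxygenase, had its trough at ZT12 (157, 167 and 157 FPKM), below every other WT liver, and peaked at ZT21.7 (amplitude 0.18, SE 0.04, adjusted p 0.00585). Cyp2d13 (0.29, peak ZT16.3, adjusted p 0.0267) and Cyp2d22 (0.17, peak ZT11.2, adjusted p 0.0378) were called with larger p, and these calls ended in 4 and 9 of the fits that left out a liver. That of Cyp2d22 also ended without the 3 livers that stood apart (adjusted p 0.0504). Those 2 and Cyp3a13 were not called when any difference among the 6 times was tested instead (adjusted p 0.147, 0.179 and 0.0503).

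None of the 13 tested members of subfamily 2c was called in WT, where 34.8% of all genes tested were. Cyp2c70 came nearest (0.30, peak ZT21.5, adjusted p 0.0587). Amplitudes of the abundant Cyp2c29, Cyp1a2, Cyp3a11 and Cyp2d9 were 0.16, 0.20, 0.28 and 0.22 and were not called. Fitted on WT libraries alone, whose spread was smallest (median SD within a group 0.13, against 0.17 in KO and 0.20 in RE), 16 members were called. Those added were Cyp1a2, Cyp2c68, Cyp2c70, Cyp2d9, Cyp2r1, Cyp2u1 and Cyp3a11, with adjusted p from 0.00401 to 0.0490.

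**Figure D3:**
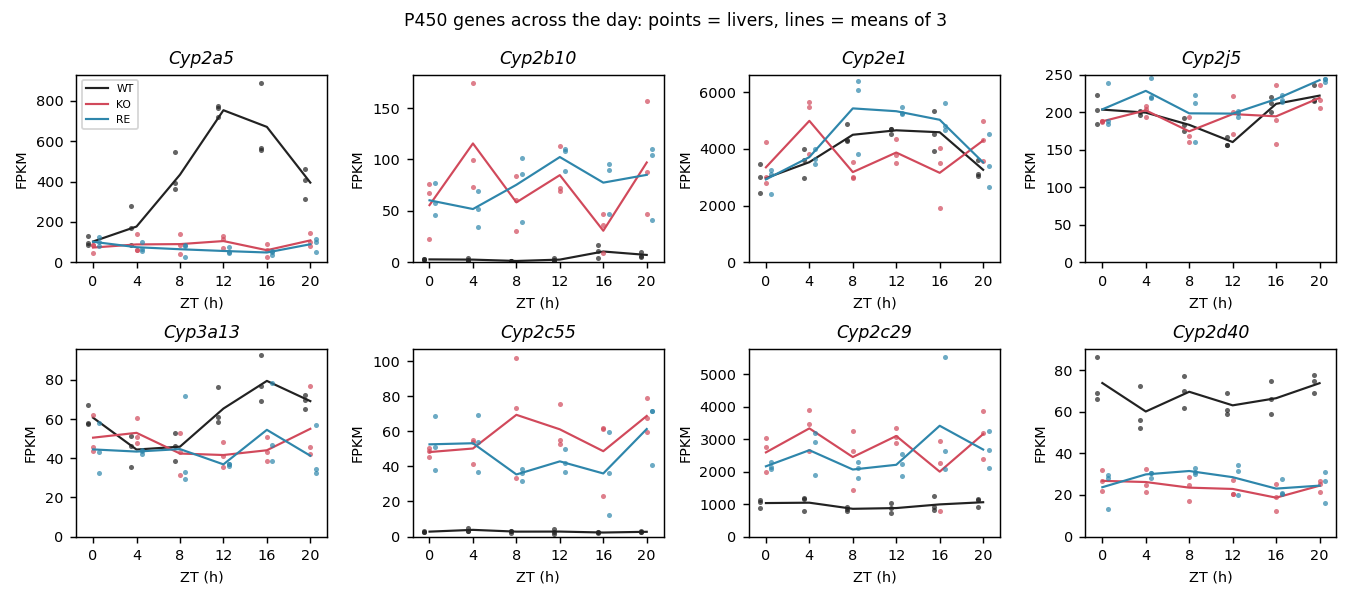
FPKM against ZT (h) for 8 members, 1 point per liver and a line through the means of 3 livers, in WT (black), KO (red) and RE (blue). Cyp2a5 climbs to a mean of 754 FPKM at ZT12 in WT and stays at 108 or below in KO and RE means, and Cyp2b10, Cyp2c55 and Cyp2c29 run above WT at all times.

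In KO livers 0 of 38 members were called, where 0.0366% of all genes tested were. At an unadjusted p under 0.05 there were 5. Cyp2a5 read 47.3, 83.9 and 87.4 FPKM at ZT0 and 114, 132 and 69.2 at ZT12 in KO (amplitude 0.07, SE 0.18). Cyp2b10 had the group means 55.6 ± 28.5, 116 ± 52.3, 58.3 ± 26.5, 84.8 ± 24.4, 30.7 ± 19.6 and 97.2 ± 55.9 FPKM from ZT0 to ZT20 (SD, n = 3 each; amplitude 0.46, SE 0.21, adjusted p 0.537 by limma). These means go up and down from one time to the next. Cyp2e1 in KO was highest at ZT4 (5676, 5471 and 3833 FPKM) and lowest at ZT16 (4051, 3495 and 1926 FPKM), with an amplitude of 0.14 (SE 0.09). The low at ZT16 rests on liver 2 (1926 FPKM), the lowest KO liver. That liver was also the lowest KO liver for Cyp1a2, Cyp2a5, Cyp2b10, Cyp2c29, Cyp2d9 and Cyp3a11, among others. It was not the lowest for Cyp2c44 or Cyp2c70. Its median correlation with its genotype (0.978) was the lowest of the KO livers, although it was not among the livers that stood apart.

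The rhythm itself differed between WT and KO in 5 members (9.06% of all genes tested were called). The size of such a difference is the length of the difference between the fitted cosine and sine pairs (log2). It was 1.45 for Cyp2a5 (SE 0.25, adjusted p 0.000305), 1.38 for Cyp2b10 (SE 0.30, adjusted p 0.00640), 0.48 for Cyp2e1 (SE 0.12, adjusted p 0.0225), 0.43 for Cyp2g1 (SE 0.10, adjusted p 0.0101) and 0.35 for Cyp2a4 (SE 0.10, adjusted p 0.0422). At ZT0 the KO livers of Cyp2a5 (47.3 to 87.4 FPKM) lay just below those of WT (87.5 to 128), while at ZT12 KO (69.2 to 132) and WT (720 to 776) were far apart. The gap in Cyp2a5 was thus narrow at ZT0 and wide at ZT12. For Cyp2b10, KO and WT were far apart at ZT8 (30.7 to 83.5 against 0.735 to 1.51 FPKM) and overlapped at ZT16 (8.87 to 47.0 against 3.74 to 16.7). The call of Cyp2e1 ended without WT ZT0 liver 0 or without KO ZT0 liver 1, without the 3 livers that stood apart (0.43, adjusted p 0.0510), and with quantile normalization (0.40, adjusted p 0.0597). That of Cyp2a4 ended in 22 of the fits that left out a liver, without the 3 livers (0.32, adjusted p 0.0510) and with no filter (adjusted p 0.0560). Cyp2a4 and Cyp2g1 were tested only through WT ZT12, so 2 of the 5 calls were favoured by the filter.

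In RE livers 7 members had a rhythm, while 46.8% of all genes tested did. The smallest p-value belonged to Cyp2e1, which in RE read 3103, 3260 and 2414 FPKM at ZT0 and 5233, 5277 and 5491 at ZT12, without overlap. Its amplitude of 0.47 (SE 0.09) and peak at ZT11.6 (adjusted p 0.000165) stood beside 0.36 and ZT11.7 in WT. The difference in rhythm between RE and WT was 0.11 (SE 0.12, adjusted p 0.789), which does not show that they are alike. Cyp2e1 was 1 of 3 members called in both genotypes, with Cyp2d22 (0.16, peak ZT7.11 in RE, adjusted p 0.0375) and Cyp2g1 (0.20, peak ZT2.36 in RE, adjusted p 0.0441). Cyp2g1 read at most 0.449 FPKM in RE apart from ZT0 liver 2 (1.33 FPKM), and without the 3 livers that stood apart its amplitude was 0.12 and not called (adjusted p 0.252). The calls of Cyp2d22 and Cyp2g1 in RE ended in 6 and 9 of the fits that left out a liver, and that of Cyp2d22 ended without the 3 livers (0.15, adjusted p 0.0827) and with quantile normalization (0.11, adjusted p 0.166). Cyp2u1 was called without the 3 livers (0.45, adjusted p 0.0102) and not with them (0.34).

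The other RE rhythms belonged to genes not called in WT. Cyp2d10 rose from 569, 618 and 530 FPKM at ZT0 to 688, 782 and 845 at ZT12 and peaked at ZT9.40 (amplitude 0.24, SE 0.05, adjusted p 0.000319). In WT its group means stayed between 567 and 609 FPKM. Cyp2j9 rose from 1.94, 1.45 and 2.13 FPKM at ZT0 to 6.10, 3.33 and 6.28 at ZT12, with a peak at ZT13.0 (amplitude 0.50, SE 0.10, adjusted p 0.000426). Cyp2c70 peaked at ZT19.0 (0.35, SE 0.10, adjusted p 0.0179), close to the uncalled fits at ZT21.5 in WT and ZT18.3 in KO (0.30 and 0.36), and that call ended without ZT8 liver 1 or ZT20 liver 2 (adjusted p up to 0.111). Cyp2d9 peaked at ZT9.87 (0.40, SE 0.12, adjusted p 0.0197), a call that ended without ZT0 liver 2, ZT8 liver 1 or ZT20 liver 0. Its value without the 3 livers that stood apart was 0.25 (adjusted p 0.0848). Fitted on RE libraries alone, 3 members were called, since Cyp2c70, Cyp2d22, Cyp2d9 and Cyp2g1 were lost. The count was 4 without RE ZT8 liver 1 and 12 without RE ZT16 liver 1.

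Cyp2a5 was not called as rhythmic in RE. It read 82.7, 123 and 98.8 FPKM at ZT0 and 45.3, 73.6 and 48.8 at ZT12, so its lowest times in RE fell where WT was highest. The RE fit had an amplitude of 0.48 (SE 0.18) and a peak at ZT0.115 (adjusted p 0.0664). The difference from WT was 1.89 (SE 0.25, adjusted p 3.31e-06). Rhythms differed between RE and WT in 5 members (14.1% of all genes tested), the others being Cyp2g1 (0.66, adjusted p 2.91e-05), Cyp2j9 (0.66, adjusted p 0.00337), Cyp2a4 (0.40, adjusted p 0.0117) and Cyp2d10 (0.24, adjusted p 0.0260). Of these 5, Cyp2g1 and Cyp2a4 were tested only through WT ZT12, so the filter favoured their calls. Without the 3 livers that stood apart, Cyp2a4 (0.32, adjusted p 0.0654 by limma) and Cyp2d10 (0.21, adjusted p 0.0905) were not called. The call of Cyp2d10 also ended without WT ZT0 liver 0, WT ZT12 liver 1, RE ZT12 liver 2 or RE ZT20 liver 0, and with quantile normalization (0.19, adjusted p 0.101). The difference of Cyp2b10 was 0.88 (SE 0.30) and not called, but it was called when RE and WT were fitted alone (adjusted p 0.0478). In RE its livers read 69.8, 34.0 and 51.5 FPKM at ZT4 and 108, 110 and 89.1 at ZT12.

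Between RE and KO, rhythms differed in 2 members (3.07% of all genes tested). Cyp2e1 differed by 0.58 (SE 0.12, adjusted p 0.0196). At ZT8 its RE livers read 3813, 6405 and 6082 FPKM, all above the KO livers at 2969, 3554 and 3027, and at ZT4 the RE livers at 3655, 3469 and 4013 overlapped the KO livers. Cyp2d10 differed by 0.28 (SE 0.07, adjusted p 0.0344), and that call ended without the 3 livers that stood apart (0.26, adjusted p 0.0667) and in 7 of the fits that left out a liver. Neither was called when these genotypes were fitted alone (adjusted p 0.102 and 0.146) or when any difference among the times was tested (0.0540 and 0.142).

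**Figure D4:**
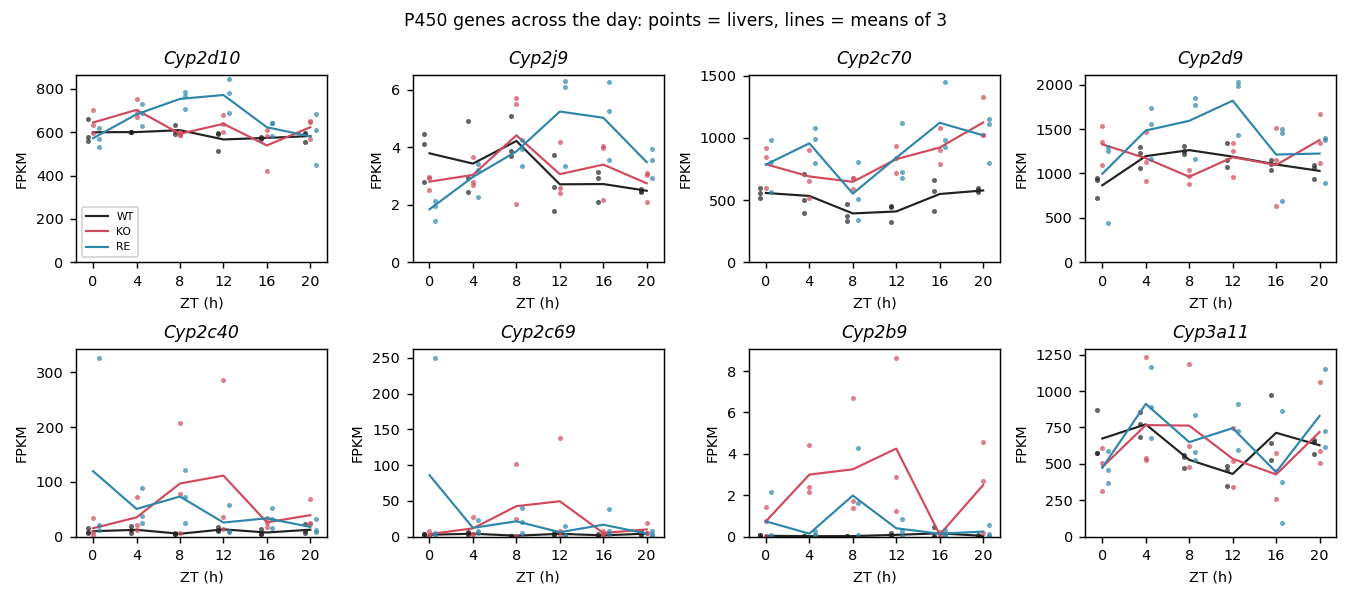
FPKM against ZT (h) for 8 further members, with points for livers, lines for means of 3, and WT in black, KO in red and RE in blue. Cyp2d10 and Cyp2j9 rise toward ZT12 in RE, and single livers of up to 327 FPKM of Cyp2c40 and 250 of Cyp2c69 stand above the rest.

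The genes that serve the P450 enzymes were read from a list of 29, of which 28 were tested. In WT 13 had a rhythm (34.8% of all genes tested did), in KO 0 (0.0366%) and in RE 14 (46.8%), and rhythms differed from WT in 8 in KO (9.06%) and 8 in RE (14.1%). Levels were higher in 7 and lower in 15 in KO (22.1% and 20.2% of all genes), and higher in 7 and lower in 13 in RE (24.2% and 21.7%). Por, the electron donor, read 35.2, 103 and 303 FPKM in WT (lowest, median, highest of 18), 27.4, 41.1 and 72.4 in KO and 21.7, 34.9 and 79.1 in RE. Its WT group means ran from 41.7 ± 7.02 at ZT0 to 276 ± 33.2 FPKM at ZT12 (SD, n = 3 each), close to the time of the Cyp2a5 peak, with an amplitude of 1.30 (SE 0.14, peak ZT12.2). The level difference was -1.22 (SE 0.14, adjusted p 3.75e-09 by limma) in KO and -1.34 in RE. Of the 5 electron donor genes 4 were lower in each.

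Alas1, which sets the pace of haem synthesis, was called as rhythmic in WT and RE. It reached an amplitude of 1.51 (SE 0.35, peak ZT12.8, adjusted p 0.00294) in WT, 0.09 (SE 0.35, not called) in KO and 1.37 (peak ZT13.7, adjusted p 0.00584) in RE. Its differences in rhythm were 1.45 between KO and WT (SE 0.49, adjusted p 0.126) and 1.32 between RE and KO (SE 0.49, adjusted p 0.183), so neither was called. Its level did not pass the test in KO (-0.32, SE 0.35) or RE (-0.07, SE 0.35). Of the 8 haem synthesis genes, 3 were higher and 2 lower in each mutant, among them Uros (0.38 in KO, 0.52 in RE) and Fech (-0.25 and -0.23). In haem breakdown, Hmox2 was higher (0.34 and 0.38) and Blvrb lower (-0.60 and -0.63), with 2 of 4 genes in each direction. Of all genes tested, 22.1% were higher and 20.2% lower in KO, and 24.2% and 21.7% in RE.

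Of 7 tested receptors and partner factors, 1 was higher and 4 were lower in KO (22.1% and 20.2% of all genes tested were). In RE 1 was higher and 2 were lower (24.2% and 21.7% of all genes). Nr1i3, encoding CAR, read 28.2, 57.6 and 98.6 FPKM in WT and 12.5, 33.0 and 66.4 in KO (difference -0.69, SE 0.12, adjusted p 5.36e-06), and in RE the difference was -0.57 (SE 0.12). Its rhythm had an amplitude of 0.44 (peak ZT14.5) in WT and 0.64 (peak ZT11.4) in RE, and it differed between KO and RE (0.64, adjusted p 0.0490). Nr1i2, encoding PXR, fell by 0.45 (SE 0.07) in KO and by 0.29 (SE 0.07) in RE. Ahr rose by 0.41 (SE 0.09) in both while Cyp1a2 was not called. In the PAR bZIP group, Dbp, Tef and Hlf and the opposing factor Nfil3 were all called as rhythmic in WT and none in KO or RE. Of all genes tested, 34.8% were called in WT, 0.0366% in KO and 46.8% in RE. Dbp had an amplitude of 2.87 (peak ZT9.15) and Tef 1.29 (peak ZT11.6), and the level difference of Dbp was -1.85 in KO and -1.96 in RE.

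**Figure D5:**
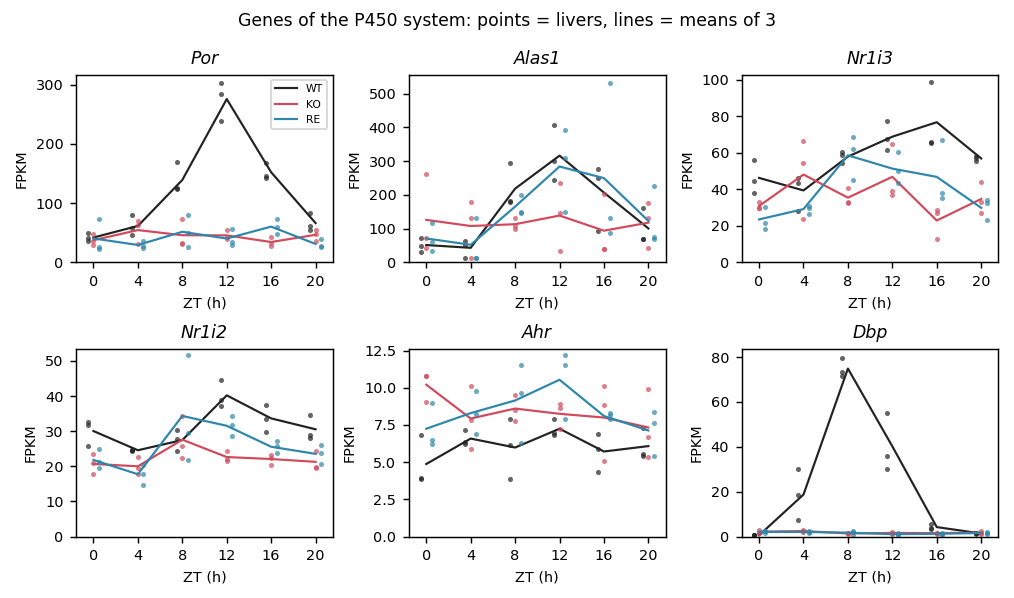
FPKM against ZT (h) of 6 genes of the P450 system, with points for livers, lines for means of 3, and WT in black, KO in red and RE in blue. Por and Dbp were called as rhythmic in WT only, whereas the means of Alas1, Nr1i3 and Nr1i2 peak between ZT8 and ZT16 in WT and RE.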

How the data were processed

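RNA sequencing of 54 mouse livers (3 genotypes, 6 times, 3 livers each) was used. TopHat and the mm10 build are named in the labels, per the submitters' processing notes. How the expression values were made, and from which annotation, is not stated in those sources. The authors deposited FPKM values, with no counts, so depth is unknown and precision rests on the spread between livers. Columns were assigned to groups only, because their numbers (0 to 2) are not the replicate numbers of the sample titles. Livers are named by column number.

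Values were analysed as log2(FPKM + 1). The 10932 of 24346 genes whose mean reached 1 FPKM in any group were fitted with limma 3.58.1 in R 4.3.3 (18 group means, eBayes with trend, 36 residual degrees of freedom). Rhythms were limma F tests of 24 h cosine and sine contrasts. The script was tested on simulated data. Named are the called members, up to 25 per comparison, those with a mean of at least 100 FPKM, those nearest the filter, Por, Alas1, Nr1i2, Nr1i3, Ahr and Dbp, and up to 4 more called genes of the pathway per comparison. Markers of 12 cell types or tissues were read, and the lists that moved with genotype or with a liver that stood apart are given in the report. The members and lists were chosen with earlier results of these data known. Shared sequence was counted in GENCODE vM21 transcripts. Alternatives were another pseudocount, other filters, other scalings, fits of the genotypes alone, a test of any difference among times, each liver left out, and, chosen after seeing the data, the 3 livers of lowest correlation left out.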

Additional observations from a re-analysis of the deposited data

Results flagged for a closer look

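Rhythms that differed between genotypes by a test of the difference itself (limma, adjusted p under 0.05) are listed here by size, the length of the difference vector in log2. Between KO and WT these were Cyp2a5 (1.45), Cyp2b10 (1.38), Cyp2e1 (0.48), Cyp2g1 (0.43) and Cyp2a4 (0.35). Between RE and WT they were Cyp2a5 (1.89), Cyp2g1 (0.66), Cyp2j9 (0.66), Cyp2a4 (0.40) and Cyp2d10 (0.24). Between RE and KO they were Cyp2e1 (0.58) and Cyp2d10 (0.28). The Cyp2e1 call between KO and WT ended with quantile normalization (adjusted p 0.0597) and without the 3 livers of lowest correlation (0.0510). Its call between RE and KO ended when these genotypes were fitted alone (0.102) and when any difference among times was tested (0.0540). Cyp2a4 and Cyp2g1 passed the filter only through WT ZT12, the group where they are high.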

How the results depend on the processing

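No reversal of a called direction was found in any setting run. No paired analysis was possible because the columns carry no replicate numbers of the labels. Without a filter, 1 member differed in rhythm between KO and RE and 0 were lower in RE than in KO. With a filter at 5 FPKM, or at a mean of 1 FPKM over all libraries, rhythms differed between WT and KO in 3 members and between WT and RE in 3, since Cyp2a4 and Cyp2g1 were no longer tested, and 0 were lower in RE than in KO. With quantile normalization 1 differed between KO and RE, and the calls of Cyp2e1 (KO and WT), Cyp2d10 (RE and WT) and Cyp2d22 (RE) also ended. With the genotypes fitted alone, 16 members had a rhythm in WT and 3 in RE, 0 differed between KO and RE, and 0 were lower in RE than in KO. With a test of any difference among the 6 times, 0 differed between KO and RE. Without the 3 livers of lowest correlation, rhythms differed in 3 members between WT and KO, 3 between WT and RE and 1 between KO and RE, and 1 member was higher and 3 lower in RE than in KO. The cause of these shifts was not tested, apart from the filters. With each liver left out in turn, members with a rhythm numbered 8 to 10 in WT, 0 to 0 in KO and 4 to 12 in RE. Rhythms differed in 3 to 6 (WT and KO), 4 to 6 (WT and RE) and 1 to 3 (KO and RE). Members higher and lower in KO than in WT numbered 17 to 19 and 9 to 10, those in RE 17 to 19 and 7 to 10, and those in RE against KO 0 to 1 and 0 to 1. The lowest count between WT and KO came without WT ZT0 liver 0 or without KO ZT0 liver 1. A pseudocount of 0.1 FPKM brought the calls of Cyp2b10 (rhythm, RE and WT, 1.16) and Cyp2b9 (level, RE and WT, 1.30) and ended that of Cyp2a4 (rhythm, KO and WT, 0.94). Depth is unknown, so counting error, which is largest for low values, could not be estimated.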

Other observations

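The 2 rows marked as pseudogenes were left out of the members. Cyp2c53-ps, of the 2c cluster, read 0.347, 0.718 and 1.44 FPKM in WT (lowest, median, highest of 18 livers), 0.335, 3.05 and 6.14 in KO and 0.935, 4.09 and 10.4 in RE. Cyp2d37-ps read 23.0, 31.4 and 50.7 FPKM in WT, 15.2, 26.4 and 35.2 in KO and 20.1, 31.1 and 62.3 in RE. Both may share reads with active neighbours, which was not tested.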
